A study of Mus musculus with 9 samples.

Results

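Glul, Oat, Slc1a2, Rhbg, Lgr5, Axin2, Rnf43, Znrf3, Tbx3 and Lhpp are hepatocyte genes of the pericentral zone that are known to depend on Wnt/β-catenin signaling. They were found by gene symbol in a deposited table of RNA-seq values, and all 10 were among its 16755 genes. The samples were taken from 3 groups of 3 male mice each, all of strain C57BL/6 (C57BL/6J in the study's methods) and homozygous for an Scd2 allele with 1 floxed exon (Scd2f/f). Scd2 encodes stearoyl-CoA desaturase 2, an enzyme that makes monounsaturated fatty acids. Mice of the first group were untreated Scd2f/f animals, called control liver here, and their age is not given. Their labels mark them as untreated in the treatment field, but the protocol text given with every sample, theirs included, describes DEN and WAD. The treatment field was used here, and every ratio to control liver rests on that choice. Mice of the other two groups were injected at the age of 2 weeks with 10 mg/kg of the carcinogen diethylnitrosamine (DEN). From the age of 6 weeks they were fed the Western alcohol diet (WAD), which is liquid and rich in fat and cholesterol and contains ethanol. The labels give 4 months of WAD, while the study's methods give a longer time. One of these groups was Scd2f/f. The other, Scd2f/f;CC, also carried a Cre transgene under control of Col1a1 regulatory sequence, which deletes Scd2 in Col1a1-expressing cells such as activated hepatic stellate cells, the target of the study's design. The labels call the tissue liver, and the study calls that of the DEN + WAD mice tumor-adjacent liver (TAL), except in its sequencing methods, which use the abbreviation NTL.

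For each gene the table holds 1 least-squares mean per group in upper-quartile normalized counts, computed by the authors from the 3 mice. No value of a single mouse entered the analysis, so the means carry no error, no comparison could be tested, and every ratio below is a description. The depth of each sample is unknown. A 1.5-fold ratio, higher or lower, serves below as a mark of size and not as a call of significance. It is not stated whether the values were divided by gene length, so levels are mainly set side by side between groups and not between genes. Sums over marker genes, the shares of single genes in them and choices of genes by their mean depend on that unstated scale. Scd2 itself had a mean of 2.46 in control liver and 6.47 in Scd2f/f TAL, and was lowest, at 1.87, in Scd2f/f;CC TAL, where the Cre was present. Means of the hepatocyte markers Alb, Apoa1, Ttr, Hnf4a and Fgb summed to 2.95e+04 in control liver and 2.72e+04 in Scd2f/f TAL, and to 3e+04 in Scd2f/f;CC TAL. Most of this sum is Alb, and Apoa1 was the 1 marker of the 5 past 1.5-fold, at 4730 in control liver and 2890 in Scd2f/f TAL (ratio 0.611), against 3680 in Scd2f/f;CC TAL. In bulk tissue, fewer cells of a type and less RNA per cell cannot be told apart, and the same holds for a narrower zone of cells and a lower level within that zone.

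The hepatic lobule is zoned along the blood flow from the portal tract to the central vein. Endothelial cells of the central vein secrete Wnt ligands and R-spondin 3, and hepatocytes next to them stabilize β-catenin, which binds TCF/LEF factors at DNA and turns on the pericentral program. That program includes the capture of ammonia as glutamine, done by hepatocytes around the vein, whereas urea synthesis belongs to periportal hepatocytes. The pathway also induces its own brakes, which makes Axin2, Rnf43 and Znrf3 readouts of its activity in many tissues.

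The 10 genes lie at separate places in the mouse genome (GRCm38), except for Oat and Lhpp. The table's coordinates placed Glul at chr1:153899944-153909723, Slc1a2 at chr2:102658659-102790784, Rhbg at chr3:88242874-88254709, Tbx3 at chr5:119670669-119684724 and Lgr5 at chr10:115450311-115587780. Chromosome 11 held Znrf3 at chr11:5276324-5444847, Rnf43 at chr11:87662722-87735539 and Axin2 at chr11:108920349-108950783. Oat at chr7:132557478-132576398 on the minus strand and Lhpp at chr7:132610638-132706420 on the plus strand are 34.2 kb apart. These spans had the same start and end as the genes of that name in GENCODE M21 for 10 of 10 genes.

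RefSeq promoter windows (GRCm38.p6), running from 250 bases before a transcript start to 50 bases from it, were matched by symbol to 5 of the 10 genes, with 6 windows in all, for Glul, Oat, Slc1a2, Axin2 and Rnf43, which had 2. They were searched for CTTTGA, the core letters that TCF/LEF factors bind, and for the longer CTTTGAT, on both strands, where they read TCAAAG and ATCAAAG. Any CTTTGAT also contains a CTTTGA. Among all 32851 mouse windows of the table, 16% held CTTTGA and 3.73% held CTTTGAT on either strand. Of the members, 1 gene had a match, Slc1a2, in a window at chr2:102706188-102706487 on the plus strand. Its transcript start lies inside the gene, 47779 bases downstream of the gene's first base, and equals the start of a GENCODE transcript. The matches are CTTTGA at position -77 from that start and ATCAAAG at position -207, which contains TCAAAG at -206, where the start is position 0. The windows of the 3 genes that were past 1.5-fold in any comparison and had a window are shown 5′ to 3′ along the gene, that of Oat at chr7:132576349-132576648 on the minus strand and that of Axin2 at chr11:108920099-108920398 on the plus strand, with the matched letters in capitals. The windows of Oat and Axin2 hold no match, which says only that these letters are not within them.
Slc1a2: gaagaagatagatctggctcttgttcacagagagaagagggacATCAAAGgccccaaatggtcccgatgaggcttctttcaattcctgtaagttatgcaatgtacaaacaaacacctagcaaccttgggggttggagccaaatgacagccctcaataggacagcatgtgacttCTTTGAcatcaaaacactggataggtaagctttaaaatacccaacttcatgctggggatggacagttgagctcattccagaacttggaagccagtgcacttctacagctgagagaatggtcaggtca
Oat: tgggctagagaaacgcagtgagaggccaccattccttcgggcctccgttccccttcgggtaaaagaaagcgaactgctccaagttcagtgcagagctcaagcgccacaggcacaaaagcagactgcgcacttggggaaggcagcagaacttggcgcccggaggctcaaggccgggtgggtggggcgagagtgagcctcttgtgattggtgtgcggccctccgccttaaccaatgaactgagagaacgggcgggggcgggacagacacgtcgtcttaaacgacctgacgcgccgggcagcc
Axin2: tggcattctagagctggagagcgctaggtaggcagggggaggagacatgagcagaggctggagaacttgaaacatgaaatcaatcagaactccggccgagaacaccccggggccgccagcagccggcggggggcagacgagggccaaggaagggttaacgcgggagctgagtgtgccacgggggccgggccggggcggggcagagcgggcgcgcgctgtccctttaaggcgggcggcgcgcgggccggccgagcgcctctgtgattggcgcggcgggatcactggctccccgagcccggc

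The first comparison set Scd2f/f TAL beside control liver and asks what the DEN + WAD regimen and tumor adjacency went with. Means of 7 of the 10 genes were higher in Scd2f/f TAL, beside 53.7% of all genes, though that of Lgr5 was not when values were centred on expressed genes, and those of Rnf43, Znrf3 and Tbx3 were lower. Oat, Slc1a2 and Lhpp were at least 1.5-fold higher, which is 30% of the members, beside 17.2% of all genes and 12.8% of the 11784 expressed genes, those whose mean over the groups was at least 1. No member was 1.5-fold lower, beside 11.3% of all genes and 8.6% of expressed genes. The median log2 ratio was 0.28 over the members and 0.04 over all genes. The second comparison set Scd2f/f;CC TAL beside Scd2f/f TAL and asks what Scd2 ablation in Col1a1-expressing cells went with under the same regimen. Means of 7 of the 10 genes were higher in Scd2f/f;CC TAL, beside 49.5% of all genes, though those of Lgr5 and Znrf3 were not when values were centred on hepatocyte markers, and those of Glul, Slc1a2 and Rhbg were lower. Tbx3 alone was past 1.5-fold higher, 10% of the members, beside 5.72% of all genes and 2.35% of expressed genes. No member was 1.5-fold lower, beside 9.82% and 4.9%. The members' median log2 ratio was 0.10 and that of all genes was 0.00. Both comparisons use the same Scd2f/f TAL mean, so a gene that is high there by error would appear higher in the first and lower in the second.

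Scd2f/f;CC TAL and control liver differ in both genotype and regimen, and the ratio of their means avoids the shared group. All 10 members had a higher mean as deposited in Scd2f/f;CC TAL than in control liver, beside 54.5% of all genes, by ratios from 1.01 for Znrf3 to 2.43 for Oat. Those past 1.5-fold higher were Oat, Slc1a2, Axin2 and Lhpp, 40% of the members, beside 14.9% of all genes and 10.9% of expressed genes. None was 1.5-fold lower, beside 10.9% and 7.71%. The median was 0.34 over the members and 0.05 over all genes. The ratios of Lgr5 and Znrf3, both within 0.03 of 0 on the log2 scale here, changed sign when the values were centred on other genes.

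**Figure D1:**
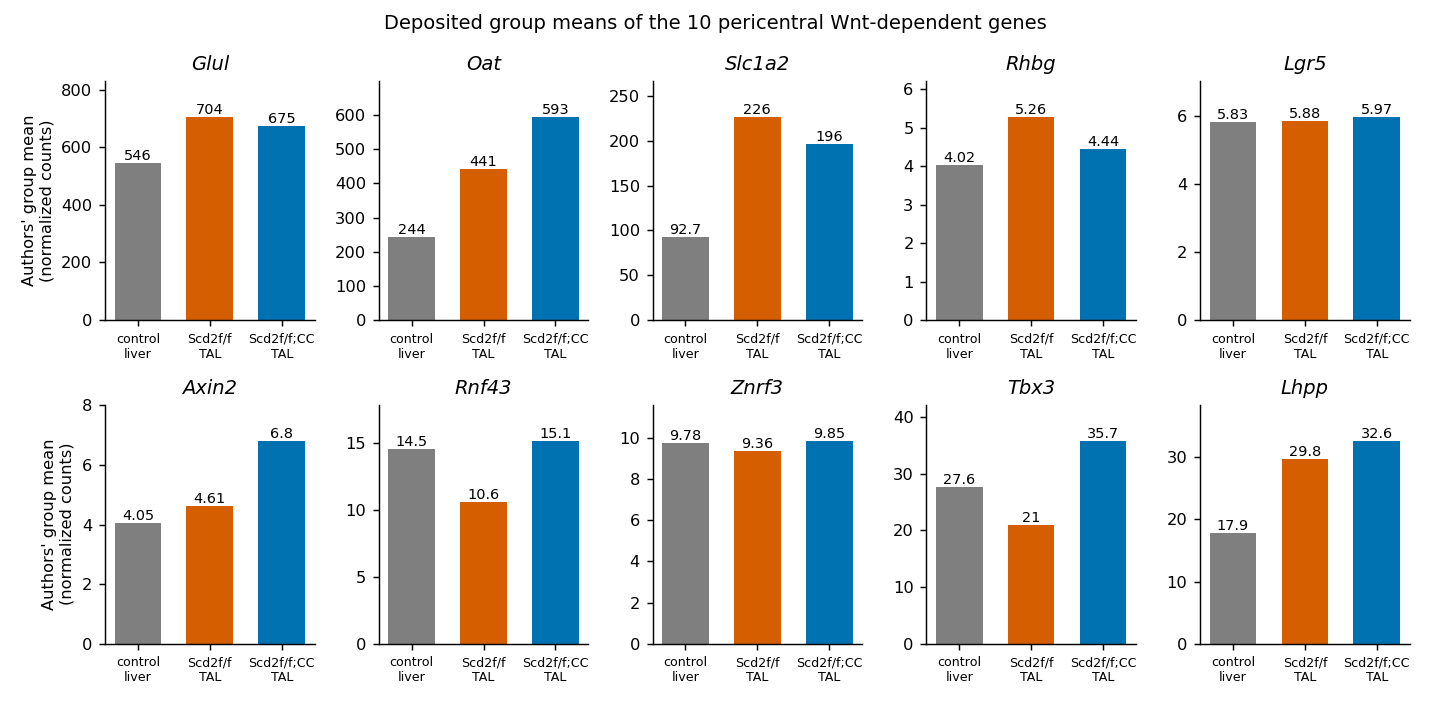
Bars show the authors' group mean (normalized counts, each panel with its own linear axis from 0) of each of the 10 genes in control liver, Scd2f/f TAL and Scd2f/f;CC TAL, with no error bars because the table gives means alone. Oat, Axin2, Lhpp and, by small steps, Lgr5 stepped up over the 3 groups, Glul, Slc1a2 and Rhbg were highest in Scd2f/f TAL, and Rnf43, Znrf3 and Tbx3 were lowest there, with the orders of Lgr5 and Znrf3 changing when values were centred on other genes.

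The 3 groups could be ordered by mean for every member. Oat, Lgr5, Axin2 and Lhpp stepped up from control liver through Scd2f/f TAL to Scd2f/f;CC TAL, as did 19% of all genes. Glul, Slc1a2 and Rhbg were highest in Scd2f/f TAL, an order held by 34.2% of all genes. Rnf43, Znrf3 and Tbx3 were lowest in Scd2f/f TAL, as were 30.3%. None stepped down over the 3 groups as deposited, an order held by 15.1%. The orders of Lgr5 and Znrf3 depended on the scale, since some of their ratios changed sign when values were centred on other genes. How far apart the extremes were differed widely among members, from a highest mean 1.02 times the lowest for Lgr5 to 2.44 times for Slc1a2. With no spread between mice, none of these neighbours in order can be said to differ.

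Members that handle glutamine, ornithine and ammonium are the metabolic side of the pericentral program. Glul encodes glutamine synthetase, which joins ammonia to glutamate and is the classic mark of the hepatocytes around the central vein. Its mean was 546 in control liver and 704 in Scd2f/f TAL, and was 675 in Scd2f/f;CC TAL. It was thus 1.29-fold higher in Scd2f/f TAL than in control liver, above 78.3% of expressed genes. Between the genotypes Glul was nearly level, with a ratio of 0.959 (log2 -0.06).

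Slc1a2 encodes the glutamate transporter GLT-1, which brings the substrate of glutamine synthetase into the cell. Its mean was 92.7 in control liver and 226 in Scd2f/f TAL, and was 196 in Scd2f/f;CC TAL. Both TAL groups were far above control liver, by 2.44-fold (log2 1.29) and 2.11-fold (log2 1.08), and these ratios exceeded those of 95.7% and 96% of expressed genes. Scd2f/f;CC TAL was at 0.867 of Scd2f/f TAL (log2 -0.21), which 18.3% of genes were below. The window with the TCF/LEF core letters printed above belongs to this gene. Its exons share 1.44% of their bases with the antisense gene Gm13872, whose means were 0.483, 0.684 and 0.754 in the same order of groups.

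Oat encodes ornithine aminotransferase, which turns ornithine into glutamate semialdehyde and so feeds glutamate to glutamine synthesis. Its mean was 244 in control liver and 441 in Scd2f/f TAL, and was 593 in Scd2f/f;CC TAL. The regimen ratio of 1.81 (log2 0.85) was followed by a genotype ratio of 1.34 (log2 0.43), larger than those of 95.2% of genes, which together made a 2.43-fold higher mean in Scd2f/f;CC TAL than in control liver. Oat was the 1 member of this set of 4 that was higher in Scd2f/f;CC TAL than in Scd2f/f TAL.

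Rhbg encodes an ammonium channel of the Rhesus family on the basolateral membrane of pericentral hepatocytes. Its mean was 4.02 in control liver and 5.26 in Scd2f/f TAL, and was 4.44 in Scd2f/f;CC TAL, ratios of 1.31 (log2 0.39) and 0.844 (log2 -0.24). The value of Rhbg is uncertain, because 61.4% of its exon bases (1190 of 1937) also belong to Gm38392 on the same strand, and reads there must be divided between both genes. Gm38392 had means of 0.895, 1.36 and 1.89 in the same groups and so was highest in Scd2f/f;CC TAL, where Rhbg was lower than in Scd2f/f TAL. Over the 4 genes, the median log2 ratio was 0.62 for the regimen, beside 0.04 for all genes. With the regimen 4 of 4 were higher, beside 53.7% of all genes. The genotype median was -0.13, beside 0.00 for all genes, with 1 higher and 3 lower, beside 49.5% and 49.6% of all genes.

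The receptor complex and its feedback members set how strongly a cell answers Wnt. Lgr5 encodes an R-spondin receptor and marks hepatocytes at the central vein and stem cells in other organs. Its mean was 5.83 in control liver and 5.88 in Scd2f/f TAL, and was 5.97 in Scd2f/f;CC TAL. The 3 means lie within 1.02-fold of each other, and the sign of each of the Lgr5 log2 ratios, 0.01, 0.02 and 0.03, depended on which genes the values were centred on.

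Axin2 encodes a scaffold of the complex that destroys β-catenin and is itself induced by β-catenin. Its mean was 4.05 in control liver and 4.61 in Scd2f/f TAL, and was 6.8 in Scd2f/f;CC TAL. The regimen ratio was 1.14 (log2 0.19). The genotype ratio of 1.48 (log2 0.56) lay just under 1.5-fold and above 97.4% of expressed genes, and over control liver Axin2 was 1.68-fold higher (log2 0.75). Antisense exons of Gm11670 cover 3.8% of its exon bases.

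Rnf43 and Znrf3 encode membrane ubiquitin ligases that remove Frizzled receptors from the cell surface and are held back when R-spondin binds LGR receptors. The mean of Rnf43 was 14.5 in control liver and 10.6 in Scd2f/f TAL, and was 15.1 in Scd2f/f;CC TAL. It was thus lower in Scd2f/f TAL than in control liver (ratio 0.731, log2 -0.45). In Scd2f/f;CC TAL it was 1.42-fold higher than in Scd2f/f TAL (log2 0.51, above 96.7% of genes) and within 1.04-fold of control liver. Znrf3 was nearly level, at 9.78 in control liver and 9.36 in Scd2f/f TAL, against 9.85 in Scd2f/f;CC TAL. Its ratios were 0.957 for the regimen and 1.05 for the genotype. Centred on hepatocyte markers, its log2 ratios were -0.04 and -0.05, while those of Rnf43 were -0.42 and 0.39. Over Lgr5, Axin2, Rnf43 and Znrf3, the median log2 ratio was -0.03 for the regimen, beside 0.04 for all genes. With the regimen 2 were higher and 2 lower, beside 53.7% and 45.8% of all genes. The genotype median was 0.29, beside 0.00 for all genes, with 4 of 4 higher, beside 49.5% of all genes. The signs of Lgr5 and Znrf3 in the genotype comparison did not hold when values were centred on the hepatocyte markers.

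Tbx3 encodes a T-box transcription factor that is a target of β-catenin in liver. Its mean was 27.6 in control liver and 21 in Scd2f/f TAL, and was 35.7 in Scd2f/f;CC TAL. The genotype ratio of 1.7 (log2 0.77) was the largest among the members and above 98.7% of expressed genes, while the regimen ratio was 0.761 (log2 -0.39). The antisense gene Tbx3os1 shares 1.74% of the exon bases of Tbx3 and had means of 0.669, 1.04 and 1.42. Since the sources used here do not state that reads were counted by strand, reads of the 2 genes in the shared bases cannot be told apart.

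Lhpp encodes a histidine and pyrophosphate phosphatase. Its mean was 17.9 in control liver and 29.8 in Scd2f/f TAL, and was 32.6 in Scd2f/f;CC TAL. It was 1.66-fold higher with the regimen (log2 0.74), 1.09-fold higher with the genotype and 1.82-fold higher over both (log2 0.86). Lhpp and its neighbour Oat thus stood in the same order of groups, and both were past 1.5-fold higher in Scd2f/f TAL than in control liver. Values of the other protein-coding genes within 500 kb, looked at after those of Oat and Lhpp were seen, ranged in regimen ratio from 0.678 for Mettl10 to 1.54 for Ctbp2. Of these 8 neighbours, Ctbp2 alone was past 1.5-fold higher, with low means of 1.04, 1.6 and 1.58, and none was past 1.5-fold lower. Fgfr2, whose span in the table covers both genes without sharing exons in GENCODE M21, had means of 19.5, 22.9 and 25.4.

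**Figure D2:**
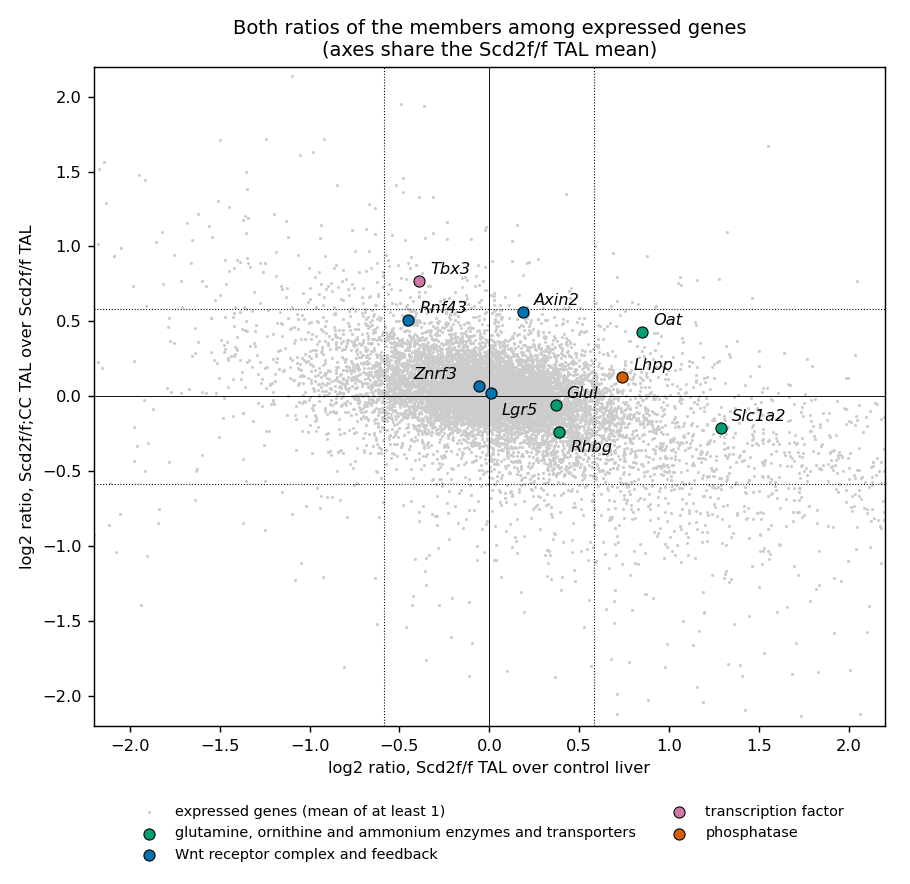
Each point is an expressed gene (mean over the groups of at least 1), placed by its log2 ratio of Scd2f/f TAL over control liver (x axis) and of Scd2f/f;CC TAL over Scd2f/f TAL (y axis), with the 10 members named and colored by role, dotted lines at 1.5-fold and 184 genes beyond the axis limits of 2.2. Both axes contain the Scd2f/f TAL mean with opposite sign, which can tilt the cloud downwards. Slc1a2, Oat and Lhpp lie right of the dotted line, Tbx3 lies above it, and Lgr5 and Znrf3 lie near the center.

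To see which genes moved most like a member over the 3 groups, expressed genes were ranked by the distance between their pair of log2 ratios and that of Glul, Lgr5 or Axin2. With only 3 group means, such a likeness is common for some patterns and rare for others. Golgb1, Gm45234 and Fbxl15 were nearest to Glul, at distances of 0.0073, 0.0095 and 0.01, and 465 of 11783 genes lay within 0.1. Dhx8, Sp2 and 2510039O18Rik were nearest to Lgr5, at distances of 0.0018, 0.0036 and 0.0063, in a crowd of 889 genes within 0.1 that were likewise level over the groups. Gm37186, Wdfy1 and Rwdd3 were nearest to Axin2, at distances of 0.0089, 0.031 and 0.043, with 17 genes within 0.1. Wdfy1, for example, had means of 5.89, 6.83 and 9.96.

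Other pericentral or Wnt-activated hepatocyte genes, 17 in number, were about evenly split in the regimen comparison. Their median log2 ratio was 0.01, with 9 higher and 8 lower, beside 53.7% and 45.8% of all genes. Slc13a3, a dicarboxylate transporter, was past 1.5-fold higher, at 6.53 in control liver and 19.7 in Scd2f/f TAL, against 15.3 in Scd2f/f;CC TAL. Cyp2c29, Avpr1a and Tcf7 were past 1.5-fold lower. Cyp2c29, a cytochrome P450, had means of 648, 255 and 581, and the vasopressin receptor Avpr1a had means of 14, 5.77 and 10.7, so both were also the list's 2 genes past 1.5-fold higher in Scd2f/f;CC TAL over Scd2f/f TAL. Tcf7, a partner of β-catenin at DNA, had means of 3.11, 1.71 and 1.59. The ethanol-metabolizing Cyp2e1 stepped up, with means of 3460, 3990 and 4570, Cyp2a5 had means of 495, 414 and 447, and Rgn had means of 604, 539 and 593. Between the genotypes the list's median was 0.17, or 0.05 when centred on hepatocyte markers. In that comparison 12 were higher, beside 49.5% of all genes, and 5 were lower.

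Periportal genes were followed as the opposite zone. Of 12, 9 were lower in Scd2f/f TAL than in control liver, beside 45.8% of all genes, with a median log2 ratio of -0.14. Arg1 and Tat were past 1.5-fold lower, with ratios of 0.599 and 0.363. In Scd2f/f;CC TAL 11 of the 12 were higher than in Scd2f/f TAL, beside 49.5% of all genes, with a median of 0.39, or 0.27 when centred on hepatocyte markers. Hal and Tat were past 1.5-fold higher, with ratios of 1.83 and 1.69. The urea cycle enzyme Cps1 had means of 2660, 2390 and 3130, Ass1 had means of 902, 986 and 1060, and the gluconeogenic Pck1 had means of 897, 715 and 1010. The genotype medians of the periportal list, the other pericentral genes and the members, 0.39, 0.17 and 0.10, were thus all above 0, beside 0.12 for the hepatocyte markers and 0.00 for all genes.

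**Figure D3:**
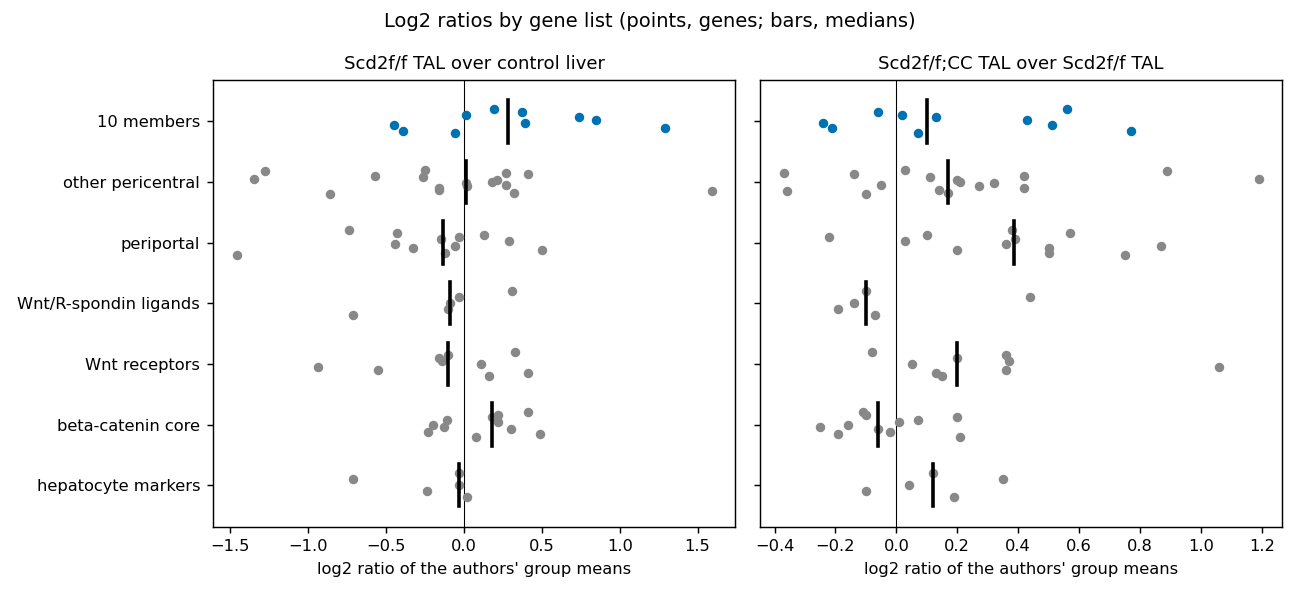
Points are genes and black bars are medians of the log2 ratio of the authors' group means (x axis) by gene list (rows), with Scd2f/f TAL over control liver on the left and Scd2f/f;CC TAL over Scd2f/f TAL on the right, on axes of different width. The members' median lies at 0.28 on the left and 0.10 on the right, and the periportal median at -0.14 and 0.39.

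Upstream of the members, 5 of the 7 listed Wnt and R-spondin ligands were in the table, and 3 of them had a mean of at least 1. The endothelial ligand Wnt2 had means of 1.94 in control liver and 1.9 in Scd2f/f TAL, against 2.58 in Scd2f/f;CC TAL. Rspo3, the R-spondin of the central vein, had means of 3.54, 4.4 and 4.11. Wnt9b, also a central vein ligand, was listed at 0.609, 0.372 and 0.355 and was the 1 ligand past 1.5-fold in the regimen comparison, on the lower side, whereas none was past it between the genotypes. Of 9 Wnt receptors and coreceptors, 8 were higher in Scd2f/f;CC TAL than in Scd2f/f TAL, beside 49.5% of all genes. Their median log2 ratio was 0.20, or 0.08 when centred on hepatocyte markers. Fzd8 was past 1.5-fold in both comparisons, with means of 7.72, 4.02 and 8.38, so that it was lowest in Scd2f/f TAL as Rnf43 and Tbx3 were. The coreceptor Lrp6 had means of 63.8, 71.5 and 79.6, and Lgr4, a relative of Lgr5, had means of 55.2, 37.7 and 48.4.

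None of the 11 measured genes of the β-catenin core, out of 12 listed, was past 1.5-fold in either direction in any comparison. Few expressed genes were, at 2.35% higher and 4.9% lower between the genotypes. These shares were 12.8% and 8.6% with the regimen, and 10.9% and 7.71% for Scd2f/f;CC TAL over control liver. Ctnnb1, which encodes β-catenin, had means of 89.9 in control liver and 105 in Scd2f/f TAL, against 106 in Scd2f/f;CC TAL. Apc and Gsk3b, of the destruction complex, had means of 28.6, 38 and 35.1 and of 30.6, 37.7 and 36.1. The median log2 ratio of the core was 0.18 for the regimen and -0.06 for the genotype. These are mRNA levels and say nothing of the amount of β-catenin protein or its place in the cell.

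Nearest relatives of the members were in the table for 6 of 10 listed genes. Of these, 3 were past 1.5-fold higher in Scd2f/f TAL than in control liver, beside 17.2% of all genes, namely Slc1a3, Slc1a4 and Tbx2. The glutamate transporter Slc1a3 had means of 0.195, 0.509 and 0.394, so its regimen ratio of 2.61 was close to the 2.44 of Slc1a2 at low values. Slc1a4, a neutral amino acid transporter, had means of 1.35, 3.36 and 4.24, and Tbx2 had means of 1.05, 2.03 and 1.53. Slc1a5, a glutamine carrier, was the 1 relative past 1.5-fold between the genotypes, at 0.901 in Scd2f/f TAL against 0.47 in Scd2f/f;CC TAL. Tbx2 was higher in Scd2f/f TAL than in control liver, whereas its relative Tbx3 was lower in Scd2f/f TAL.

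Other genes of glutamine and ammonia handling were near the background in the regimen comparison, with a median log2 ratio of 0.04 over 12 genes. Aldh18a1, an enzyme of proline synthesis, had low means of 0.618, 1.43 and 0.991. Between the genotypes 9 of the 12 were higher, beside 49.5% of all genes, with a median of 0.27, or 0.15 when centred on hepatocyte markers. The transaminase Got1 was past 1.5-fold higher, with means of 51.8, 39 and 71.7. Glutamate dehydrogenase, Glud1, had level means of 603, 609 and 626. The amino acid carriers Slc38a4 and Slc38a3 had means of 554, 586 and 731 and of 491, 361 and 519.

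Markers of other liver cells also differed between the groups. Summed means of 5 macrophage markers were 52.5 in control liver and 174 in Scd2f/f TAL, against 159 in Scd2f/f;CC TAL. Of these, 5 of 5 were past 1.5-fold higher with the regimen, beside 17.2% of all genes. So were 5 of 5 lymphocyte markers, whose sums were 1.02, 3.85 and 2.18. None of the lymphocyte markers had a mean of at least 1. Their median regimen log2 ratio was 1.97, or 0.45 when 1 was added to every mean. Endothelial sums were 105, 142 and 143. In Scd2f/f TAL 6 of 6 endothelial markers were higher than in control liver, beside 53.7% of all genes. Past 1.5-fold higher were 2 of them, beside 17.2%. Between the genotypes 1 of 6 endothelial markers was past 1.5-fold lower, Lyve1 (ratio 0.521), beside 9.82% of all genes. So were 1 of 5 macrophage markers, Cd68 (ratio 0.638), and 3 of 5 lymphocyte markers. None of the markers on these lists was past 1.5-fold higher between the genotypes. Sums of 8 markers of stellate cells and portal fibroblasts were 112, 165 and 107, most of which was Reln, at 73, 89.2 and 71.6. In Scd2f/f;CC TAL 6 of the 8 were past 1.5-fold lower than in Scd2f/f TAL, beside 9.82% of all genes, and Reln was not among them. Sums of 5 cholangiocyte markers were 58.7, 53.1 and 19.1, most of which was Spp1. Between the genotypes 4 of 5 were past 1.5-fold lower, beside the same 9.82%. Their median genotype log2 ratio was -1.86, or -0.54 when 1 was added to every mean. None of the defining markers was listed at 0. The part of these differences in cell markers in the ratios of the 10 genes was not tested.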

How the data were processed

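Polyadenylated RNA of 9 livers, 3 per group, was prepared with TruSeq RNA v2 and sequenced on a NextSeq 500 by the authors. Per the study's methods, reads were quantified to Gencode M3 genes with the Partek E/M method and upper-quartile normalized over all samples. The submitters' processing notes list Partek 6, STAR 2.6.1 and mm10 with no role. The deposited signal values are least-squares means of normalized counts, 1 per group with 3 significant digits. Rounding moves a log2 ratio of a member by at most 0.012. The repeated Scd2f/f TAL column (unit other) in the deposited table was used only as a check, and differed from the first for 0 genes. The table also holds the authors' ratios, fold changes, p-values and false discovery rates, which were not used. Upper quartiles of the 3 columns were 15.5, 15.5 and 15.4.

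Ratios were quotients of group means with no pseudocount. The test planned for values of single samples was not run. Lists were described by counts past 1.5-fold and medians, beside all 16755 genes or the 11784 with a mean of at least 1. Named genes are the 10 members, up to 4 genes of each pathway list with the largest mean, genes beside a count of 5 or fewer, and the 3 genes of most like pattern. Members and lists were chosen with earlier results of these data known. Exon overlaps were computed on GENCODE M21. Scripts were tested on simulated data and used Python 3.11.15, NumPy 2.4.6, pandas 2.3.3 and Matplotlib 3.10.9. Pseudocounts of 0.1 and 1, other folds, centring on other genes and filters on the mean were tried as alternatives. A result for a listed gene is not reported here.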

Additional observations from a re-analysis of the deposited data

How the results depend on the processing

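Group means give no replicate error and depth is unknown, so no difference above could be set against spread. No paired analysis was possible because the table holds 1 mean per group, and for the same reason no replicate could be left out. Of 120 recomputed log2 ratios of members, 109 moved by less than 0.1 and 11 moved further, 10 of them when centred on hepatocyte markers, whose median shifted by -0.03, 0.12 and 0.02 in the regimen, genotype and combined comparisons. Centring moves every member of a comparison by the same amount. Those 10 were therefore all 10 members in the genotype comparison, and their count is no check of single members. The sign changed in 6 of the 120 ratios, all of Lgr5 and Znrf3. With centring on hepatocyte markers the members' median genotype ratio was -0.02 instead of 0.10. With a difference of 25% as the mark in place of 50%, 5 members were past it higher and 2 lower with the regimen, and 4 higher with the genotype. At a fold of 2 the counts higher were 1 for the regimen, 0 for the genotype and 2 for both. No share of all genes is given at these other marks. The counts at them therefore cannot be set against the background. The share of genes past 1.5-fold depended on which genes were counted. With genes under a mean of 1 left out, it was 2.35% higher and 4.9% lower for the genotype. Among the 7967 genes within the range of the members' means, 4.57 to 642, a set chosen after seeing the data, it was 8.59% higher for the regimen, 1.48% higher and 2.42% lower for the genotype, and 7.76% higher and 6.83% lower for both.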
